A study of Mus musculus with 10 samples.

Results

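The 8 genes described here encode ligands of the tumor necrosis factor (TNF) family: Lta, Ltb, Tnf, Tnfsf14, Tnfsf11, Cd40lg, Tnfsf8 and Tnfsf10. They were chosen by gene symbol, as ligands through which T cells contact dendritic and stromal cells, from the 54532 genes of a read count table. All 8 passed the filter on low counts that left 21414 genes for testing. The counts came from Tregs, regulatory CD4 T cells defined by Foxp3, which dampen immune responses. The cells had been sorted as CD45+CD3+CD4+CD25+GFP+ and sequenced by Smart-seq2, which amplifies whole transcripts from very little RNA. The Tumor group held 5 libraries from colon tumours of Apc Min/+ mice that also carried Foxp3 DTR, and the WT group held 5 libraries from the colon of Foxp3 DTR mice without the Min allele. Apc Min/+ is a truncating allele of the Wnt pathway inhibitor Apc that leads to intestinal tumours, and Foxp3 DTR, carried by both groups, places a diphtheria toxin receptor under Foxp3. All mice were male C57BL/6 animals aged 16 weeks. No label gave the number of animals behind a library or said that replicates were separate animals, so p-values measure the spread between these libraries, which may be technical. Healthy colon of the tumour-bearing mice was not analysed here.

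TNF family ligands are mostly membrane proteins that act as trimers on receptors of the TNF receptor superfamily of a neighbouring cell. Receptor binding recruits TRAF adaptor proteins and activates NF-kappaB, and some receptors instead start death signalling through FADD and caspase-8. In the gut the lymphotoxins and RANKL (Tnfsf11) are known for organizing lymphoid tissue through stromal cells, and RANKL and CD40 ligand are known for supporting dendritic cell survival and activation.

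The sort markers and other cell markers bear on every value that follows. Total counts were 3054435 to 7747699 per library in Tumor and 1676229 to 8412887 in WT. Levels are in CPM, a read count relative to the library's total, scaled by the trimmed mean of M values (TMM). Foxp3 stood at 92.2 ± 40.4 CPM in Tumor and 16.6 ± 14.97 CPM in WT (SD, n = 5 each), with an edgeR adjusted p of 0.0560 for the log2 fold change of 2.48. The 7 sort markers (Ptprc, Cd4, Il2ra and Foxp3 among them) summed to 2998 to 5371 CPM in Tumor and 173 to 1273 CPM in WT. Of the 7, 3 were called higher, beside 1.37% of all tested genes. The geometric mean of 14 T cell genes (pan-T genes, such as Cd3e, Lck and Cd2) was 225 to 496 CPM in Tumor and 15.5 to 102 CPM in WT, with no overlap. In such bulk libraries fewer T cells and less RNA per T cell cannot be told apart. The 12 listed epithelial genes together reached 26654 and 35603 CPM in WT replicates 1 and 2 and 142 to 188 CPM in the other 3 WT libraries. In WT replicates 3 to 5, 9.92% to 26.5% of all counts fell on the gene model Gm10800, against 0.844% to 5.77% in the other 7 libraries. The fold changes of the ligands and of the named pathway genes are therefore given on TMM scaling and again on a scale set by the pan-T genes of each library. Calls among these genes are also given without WT replicates 1 and 2 and without WT replicates 3 to 5. These fits called 7.9% and 4.41% of all tested genes, beside 1.59% with all 10 libraries, so calls came more easily in them. The second fit kept only the epithelium-rich WT replicates 1 and 2 as WT.

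Among the 8 ligand genes Ltb and Tnfsf11 rose in Tumor, and the other 6 did not pass the test. All 8 fitted log2 fold changes were above 0, as were those of 9374 of the 21414 tested genes and of all 14 pan-T genes. The ligands' values ran from 0.68 for Tnfsf8 to 3.90 for Ltb, with a median of 2.13. The median of all tested genes was -0.20 and that of the pan-T genes 2.83. A gene was called at an adjusted p below 0.05 in edgeR's quasi-likelihood test with Benjamini-Hochberg adjustment over all tested genes. By this rule 2 of the 8 ligands were called higher and 0 lower, where 1.37% of the 21414 tested genes were called higher and 0.219% lower. At an unadjusted p below 0.05 there were 4 of the 8, Cd40lg and Tnf besides the called pair, where 16.1% of all tested genes lay below it. DESeq2 called these 4 higher and 0 lower, where it called 3.18% of all tested genes higher and 4.53% lower. A single set of counts was simulated for this design, with 200 of 21414 genes changed. In it 36.4% of DESeq2 calls were false, against 7.14% of edgeR calls. Limma voom called 2 higher and 0 lower, where it called 2.21% of all tested genes higher and 0.154% lower. With pan-T scaling 0 of the 8 passed upward, also before adjustment, and 2, Tnfsf8 and Tnfsf10, were called lower. That scaling called 0.103% of all tested genes higher and 89.2% lower and moved the median of all tested genes to -3.52, and the ligands' median log2 fold change became -0.84.

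**Figure D1:**
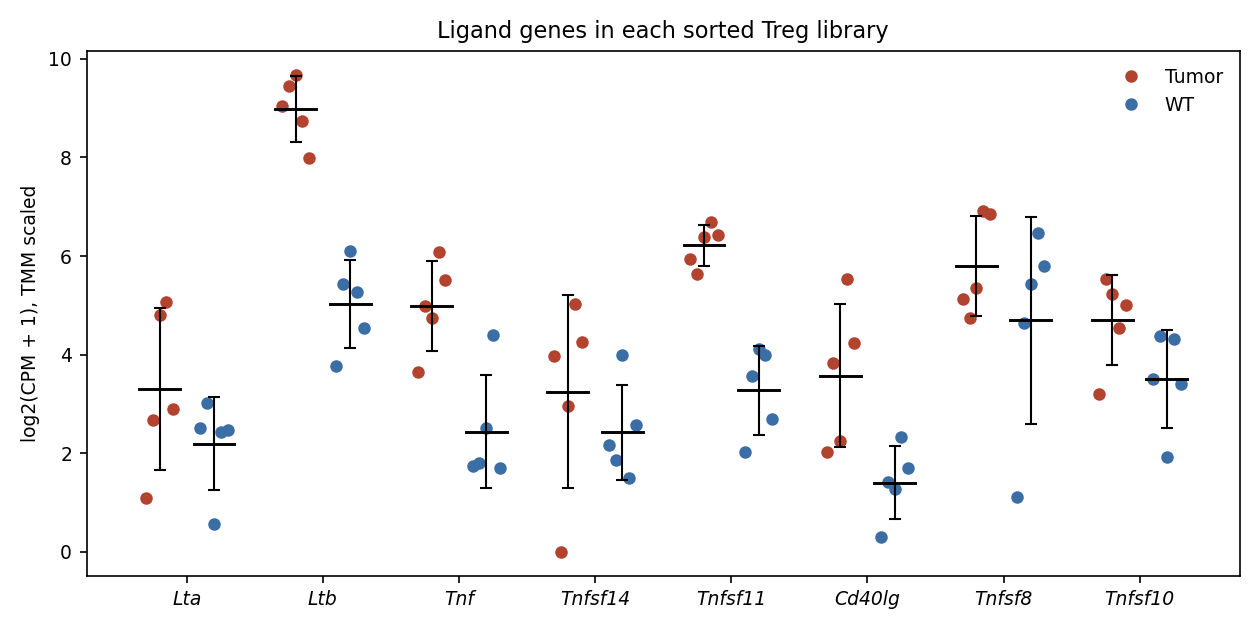
Level of each ligand gene as log2(CPM + 1), TMM scaled, with 1 point per library, Tumor left and WT right, a line at the mean and bars of 1 SD (n = 5 each). The Tumor points of Ltb (253 to 819 CPM) and Tnfsf11 (48.9 to 102 CPM) lie above all WT points, and the groups overlap for the other 6 genes.

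Ltb encodes lymphotoxin beta, which anchors the lymphotoxin heterotrimer in the membrane and signals through the lymphotoxin beta receptor Ltbr. The gene (ENSMUSG00000024399, mm10 chromosome 17, 35194439 to 35196320, plus strand) gave 1886, 1675, 5048, 2412 and 1102 reads in Tumor replicates 1 to 5, against 54, 305, 144, 103 and 49 reads in WT replicates 1 to 5. As levels these were 530, 694, 819, 428 and 253 CPM in Tumor, against 12.6, 42.1, 67.6, 37.5 and 22.2 CPM in WT. The lowest Tumor value thus exceeded the highest WT value, a separation seen in 2 of the 8 ligands and in 4.38% of all tested genes, where the opposite separation was seen in 0 ligands and in 1.57% of genes. Ltb averaged 545 ± 222 CPM in Tumor and 36.4 ± 21.1 CPM in WT (SD, n = 5 each). The log2 fold change was 3.90 ± 0.71 (SE, edgeR adjusted p = 0.0102). It stayed called when any single library was left out (adjusted p 0.0121 to 0.0476) and without WT replicates 1 and 2 (0.00447) or WT replicates 3 to 5 (4.68e-05).

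Set against the pan-T genes of its own library, Ltb kept a narrow separation that did not pass the test. Its reads came to 171%, 189%, 165%, 129% and 112% of the pan-T geometric mean in Tumor replicates 1 to 5, against 84.0%, 111%, 107%, 37.0% and 88.9% in WT replicates 1 to 5. The lowest Tumor library, replicate 5, lay just above the highest WT library, replicate 2. On this scale 0.154% of all tested genes separated upward and 38.6% downward. The pan-T scaled log2 fold change was 0.84 ± 0.73 (edgeR adjusted p = 0.267). Of the 8 ligands Ltb was the one with no overlap on this scale.

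Lta encodes lymphotoxin alpha, which is secreted as a homotrimer that binds the TNF receptors or joins lymphotoxin beta at the membrane. Lta (ENSMUSG00000024402, mm10 chromosome 17, 35203165 to 35205351, minus strand) gave 4, 13, 165, 182 and 28 reads in Tumor replicates 1 to 5, against 20, 51, 1, 12 and 10 reads in WT replicates 1 to 5. Its levels were 1.12, 5.39, 26.8, 32.3 and 6.42 CPM in Tumor, against 4.68, 7.05, 0.469, 4.37 and 4.54 CPM in WT. Tumor replicates 3 and 4 were high, while Tumor replicate 1 lay below 4 of the 5 WT libraries. The log2 fold change of 1.75 ± 0.95 (SE) did not pass (edgeR adjusted p = 0.369) and was -1.85 ± 1.15 with pan-T scaling (adjusted p = 0.125). Per length, Ltb exceeded Lta by 12.1 to 430 times in Tumor and by 2.46 to 131 times in WT. These ranges overlapped, and the highest ratio of each group rested on 4 and on 1 Lta reads.

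Tnf encodes TNF itself, an inflammatory cytokine made by T cells and, in larger amounts, by macrophages. The gene (ENSMUSG00000024401, mm10 chromosome 17, 35199381 to 35202007, minus strand) stood at 11.5, 30.7, 25.8, 66.7 and 44.5 CPM in Tumor replicates 1 to 5, against 2.34, 2.49, 4.69, 20.02 and 2.27 CPM in WT replicates 1 to 5. WT replicate 4 was the high library of its group and the one that overlapped Tumor, where it lay above Tumor replicate 1. Tnf averaged 35.8 ± 20.9 CPM in Tumor and 6.36 ± 7.70 CPM in WT (SD, n = 5 each). The log2 fold change of 2.50 ± 0.76 (SE) did not pass (edgeR adjusted p = 0.111). Without WT replicate 4 it was 3.62 ± 0.76 and passed (adjusted p = 0.0203), as it did without WT replicates 3 to 5 (0.00489), in DESeq2 (0.0358) and with no filter on low counts (0.0379). The adjusted p ran from 0.00489 to 0.977 over the alternatives, and was highest with pan-T scaling, where the log2 fold change was -0.031 ± 0.999.

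Macrophage RNA moved with the Tumor group. The 12 macrophage and monocyte genes (among them Lyz2, C1qa and Apoe), each detected, summed to 1487 to 6325 CPM in Tumor and 69.9 to 203 CPM in WT. Of the 11 tested, 5 were called higher, beside 1.37% of all tested genes. Within Tumor the sums in replicates 1 to 5 were 1487, 6325, 1861, 2091 and 5609 CPM. Tnf, at 11.5, 30.7, 25.8, 66.7 and 44.5 CPM in the same libraries, was lowest where the macrophage sum was lowest and highest in replicate 4, which had the third highest sum. The part of this RNA in the ligand values was not tested.

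Ltb, Tnf and Lta lie next to each other in 10913 bases of chromosome 17. Ltb is read on the plus strand and ends 3060 bases before Tnf, and Tnf and Lta are read on the minus strand, 1157 bases apart. No other gene of the table overlaps Tnf, and the overlapping microRNA genes of Ltb and Lta (Mir6973a and Mir6974) had 21 and 0 reads in all. Of the 6 neighbouring genes listed, 1 was called higher and 0 lower, beside 1.37% and 0.219% of all tested genes. Their median log2 fold change was 1.35. The call was Aif1, a macrophage gene, with a log2 fold change of 5.12 ± 0.86 (edgeR adjusted p = 0.00664), or 2.42 ± 1.17 with pan-T scaling (0.0530). It was called in all 10 fits that left out 1 library, without WT replicates 1 and 2 (0.00450) and without WT replicates 3 to 5 (0.000108). Ddx39b, an RNA helicase gene (1.07 ± 0.70), and Prrc2a (0.33 ± 0.51) did not pass (adjusted p = 0.452 and 0.773). Ddx39b passed without WT replicates 1 and 2 (2.45 ± 0.65, adjusted p = 0.0238) but not without WT replicates 3 to 5 (0.072 ± 0.49). Prrc2a passed in neither of these fits. With pan-T scaling these 2 had -2.32 ± 0.88 and -3.19 ± 0.87 (0.0175 and 0.00268).

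Promoter sequence is shown for the 3 genes of this cluster and for Tnfsf11, the other called ligand, so that the start regions of called and uncalled members can be read side by side. RefSeq windows (GRCm38.p6, the assembly also named mm10) ran from 250 bases before to 50 bases after the annotated start and were matched for 7 of the 8 ligands, all but Cd40lg. The windows lie at chr17:35194257-35194556 on the plus strand for Ltb, and on the minus strand at chr17:35201958-35202257 for Tnf, chr17:35205302-35205601 for Lta and chr14:78307994-78308293 for Tnfsf11. Capitals mark matches to the NF-kappaB consensus, to the AP-1 motif TGANTCA and to the TATA box motif, spelled TATAAA, searched on both strands.
Ltb: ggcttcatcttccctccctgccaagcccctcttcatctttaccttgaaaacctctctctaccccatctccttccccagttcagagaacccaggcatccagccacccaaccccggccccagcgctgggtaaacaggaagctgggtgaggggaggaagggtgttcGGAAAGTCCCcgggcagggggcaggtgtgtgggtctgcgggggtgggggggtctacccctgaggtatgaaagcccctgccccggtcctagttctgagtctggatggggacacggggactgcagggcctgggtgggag
Tnf: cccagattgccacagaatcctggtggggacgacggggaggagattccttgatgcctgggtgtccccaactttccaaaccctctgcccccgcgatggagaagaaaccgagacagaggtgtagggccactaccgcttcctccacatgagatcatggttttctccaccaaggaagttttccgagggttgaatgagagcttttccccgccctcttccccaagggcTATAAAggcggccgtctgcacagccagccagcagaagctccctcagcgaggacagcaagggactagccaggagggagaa
Lta: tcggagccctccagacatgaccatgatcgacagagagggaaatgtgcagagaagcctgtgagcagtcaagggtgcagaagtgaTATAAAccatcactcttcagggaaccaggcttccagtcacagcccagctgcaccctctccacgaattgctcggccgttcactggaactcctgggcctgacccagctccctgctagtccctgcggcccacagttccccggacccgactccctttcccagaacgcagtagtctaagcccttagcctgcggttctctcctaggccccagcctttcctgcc
Tnfsf11: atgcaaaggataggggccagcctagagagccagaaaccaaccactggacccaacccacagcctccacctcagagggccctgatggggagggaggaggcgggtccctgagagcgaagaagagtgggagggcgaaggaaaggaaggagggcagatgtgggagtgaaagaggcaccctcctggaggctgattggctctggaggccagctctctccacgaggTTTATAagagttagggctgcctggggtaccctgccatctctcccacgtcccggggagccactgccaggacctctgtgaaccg

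Of the 7 windows only that of Ltb held the NF-kappaB consensus, which 8.46% of all 32851 RefSeq windows of this length held. The match, GGAAAGTCCC with its first base at -87 from the RefSeq start, reads as the consensus on the opposite strand. For Ltb this RefSeq start lies downstream of the gene start given above (35194439), so the match is nearer to that one. For Tnf, Lta and Tnfsf11 the starts coincide. The match overlaps the single GGAAA, the core of NFAT sites, in the Ltb window, and GGAAA itself was found in 7 of the 7 windows and in 61.3% of all. TATAAA was found in 3 of the 7 windows and in 13.6% of all, with its first base at -29 in Tnf, at -32 in Tnfsf11 (opposite strand) and at -167 in Lta. TGANTCA was found in 1 of the 7, that of Tnfsf14, and in 7.81% of all. A match describes these letters and was not measured as bound.

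Tnfsf14 encodes LIGHT, a ligand of both Ltbr and the herpesvirus entry mediator Tnfrsf14. LIGHT transcripts (ENSMUSG00000005824, mm10 chromosome 17, 57189492 to 57194177, minus strand) stood at 14.6, 0, 6.82, 31.6 and 18.1 CPM in Tumor replicates 1 to 5, against 3.51, 2.63, 15.02, 1.82 and 4.99 CPM in WT replicates 1 to 5. Tumor replicate 2 had 0 reads, which by the limit of 3 counts allows up to 1.24 CPM, and WT replicate 3 was the high library of its group. The groups overlapped, and the log2 fold change of 1.36 ± 1.006 (SE) did not pass (edgeR adjusted p = 0.511). With pan-T scaling it was -1.65 ± 1.18 (adjusted p = 0.178).

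Tnfsf11 encodes RANKL, the ligand of RANK (Tnfrsf11a) on dendritic cells, stromal cells and osteoclast precursors. The gene (ENSMUSG00000022015, mm10 chromosome 14, 78277445 to 78308043, minus strand) gave 215, 118, 509, 577 and 369 reads in Tumor replicates 1 to 5, against 13, 79, 35, 41 and 12 reads in WT replicates 1 to 5. Levels were 60.4, 48.9, 82.6, 102 and 84.7 CPM in Tumor, against 3.04, 10.9, 16.4, 14.9 and 5.44 CPM in WT. The groups did not overlap, and within Tumor this was the ligand with the smallest spread, a coefficient of variation of 27.9% against 40.7% for Ltb and 103% for Cd40lg. Tnfsf11 averaged 75.8 ± 21.2 CPM in Tumor and 10.2 ± 5.82 CPM in WT (SD, n = 5 each), a log2 fold change of 2.90 ± 0.56 (SE, edgeR adjusted p = 0.0153). The call was lost without Tumor replicate 3 (adjusted p = 0.0610) and without WT replicate 1 (0.0606), with log2 fold changes of 2.87 and 2.62, and held in the other 8 fits that left out 1 library. It held without WT replicates 1 and 2 (0.0113) and without WT replicates 3 to 5 (0.00106), and the adjusted p ran from 0.000513 to 0.926 over all alternatives.

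Relative to the pan-T genes RANKL transcripts did not separate the groups. Tnfsf11 reads were 19.5%, 13.3%, 16.7%, 30.9% and 37.6% of the pan-T geometric mean in Tumor replicates 1 to 5, against 20.2%, 28.8%, 25.9%, 14.7% and 21.8% in WT replicates 1 to 5. The WT libraries lay inside the Tumor range. On this scaling the log2 fold change was 0.08 ± 0.85 (edgeR adjusted p = 0.926), an estimate whose error also allows a sizeable difference in either direction.

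**Figure D2:**
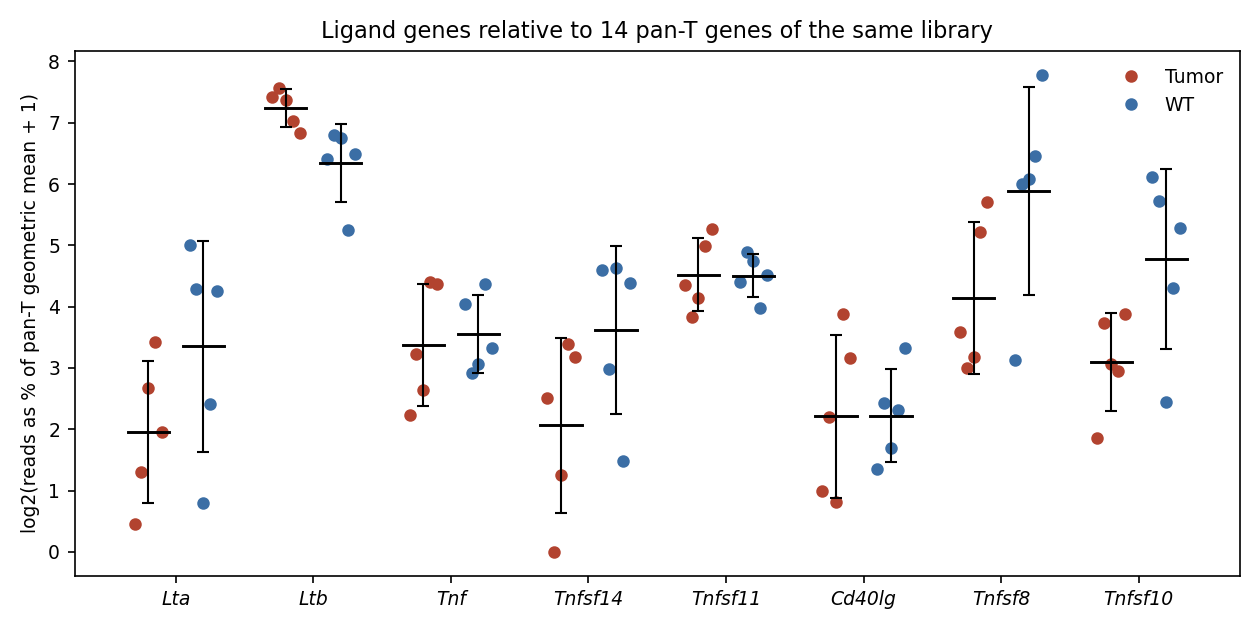
Reads of each ligand gene as a percentage of the geometric mean of 14 pan-T genes of the same library, as log2(percentage + 1), with 1 point per library, Tumor left and WT right, a line at the mean and bars of 1 SD (n = 5 each). Ltb is the gene whose Tumor points (112% to 189%) all lie above its WT points (37.0% to 111%).

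Cd40lg encodes CD40 ligand, a molecule of activated helper T cells that binds CD40 on dendritic and B cells. It (ENSMUSG00000031132, mm10 chromosome X, 57212143 to 57224042, plus strand) stood at 3.09, 13.3, 3.73, 45.3 and 17.9 CPM in Tumor replicates 1 to 5, against 0.234, 1.66, 1.41, 4.003 and 2.27 CPM in WT replicates 1 to 5, the lowest of which was 1 read. Tumor replicate 4 held 255 of the Cd40lg reads, while Tumor replicates 1 and 3 lay within the WT range. The log2 fold change of 3.12 ± 0.99 (SE) did not pass in edgeR (adjusted p = 0.130) and passed in DESeq2 (0.0200), with a range of 0.0200 to 0.745 over the alternatives. With pan-T scaling it was 0.38 ± 1.13 (adjusted p = 0.745).

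The summed CPM of helper T cell genes was also highest in Tumor replicate 4, mostly through Il17a and Ifng. The 11 helper T cell genes summed to 164, 103, 104, 396 and 196 CPM in Tumor replicates 1 to 5, against 45.2, 35.2, 192, 74.2 and 89.4 CPM in WT replicates 1 to 5. Of the 6 tested, 1, Il17a, was called higher, beside 1.37% of all tested genes. The others did not pass, with log2 fold changes of 0.84 for Bcl6, 0.69 for Il17f, -0.25 for Il21, -0.84 for Cxcr5 and -0.93 for Il4. Il17a, a cytokine of T helper 17 cells, was at 213 CPM in Tumor replicate 4 and at 20.3 to 128 CPM in the other Tumor libraries, against 0 to 1.46 CPM in WT. Ifng, interferon gamma, was at 71.5 CPM in Tumor replicate 4 and at 0 to 2.60 CPM in the other Tumor libraries, against 54.9 CPM in WT replicate 3 and 0 to 1.82 CPM in the other WT libraries. Tumor replicate 4 was also the highest Tumor library for Tnf, Tnfsf8, Tnfsf11, Tnfsf14 and Lta. Foxp3 was lowest there within Tumor, at 36.9 CPM against 80.1 to 148 CPM in the other Tumor libraries. The part of helper T cell RNA in the ligand values was not tested.

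Tnfsf8 encodes CD30 ligand, which binds CD30 (Tnfrsf8) on activated lymphocytes. The gene (ENSMUSG00000028362, mm10 chromosome 4, 63831308 to 63861347, minus strand) stood at 34.0, 25.7, 39.9, 119.8 and 115 CPM in Tumor replicates 1 to 5, against 1.17, 23.9, 42.3, 87.7 and 54.9 CPM in WT replicates 1 to 5. Tumor replicates 4 and 5 were high, Tumor replicates 1 to 3 lay within the WT range, and WT replicate 1 was low. The log2 fold change was 0.68 ± 0.73 (SE), the smallest of the 8, and did not pass (edgeR adjusted p = 0.665). Relative to the pan-T genes it was lower in Tumor, by -1.97 ± 0.85 log2 units (adjusted p = 0.0324), on a scale where 89.2% of all tested genes were called lower. On that scale Tnfsf8 reads were 10.9%, 6.99%, 8.06%, 36.1% and 51.1% of the pan-T geometric mean in Tumor, against 7.77%, 63.0%, 66.7%, 86.6% and 219.6% in WT, where WT replicate 1 fell within the Tumor range.

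Tnfsf10 encodes TRAIL, a death ligand that binds the receptor Tnfrsf10b in mice. The gene (ENSMUSG00000039304, mm10 chromosome 3, 27317028 to 27342427, plus strand) stood at 8.15, 45.2, 36.7, 22.2 and 31.0 CPM in Tumor replicates 1 to 5, against 10.3, 19.8, 2.82, 18.9 and 9.53 CPM in WT replicates 1 to 5. In Tumor, 4 of the 5 libraries lay above all WT libraries and replicate 1 lay below 4 of them. The log2 fold change of 1.21 ± 0.65 (SE) did not pass (edgeR adjusted p = 0.368). It was -2.08 ± 0.95 with pan-T scaling (adjusted p = 0.0409), again among the 89.2% called lower.

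**Figure D3:**
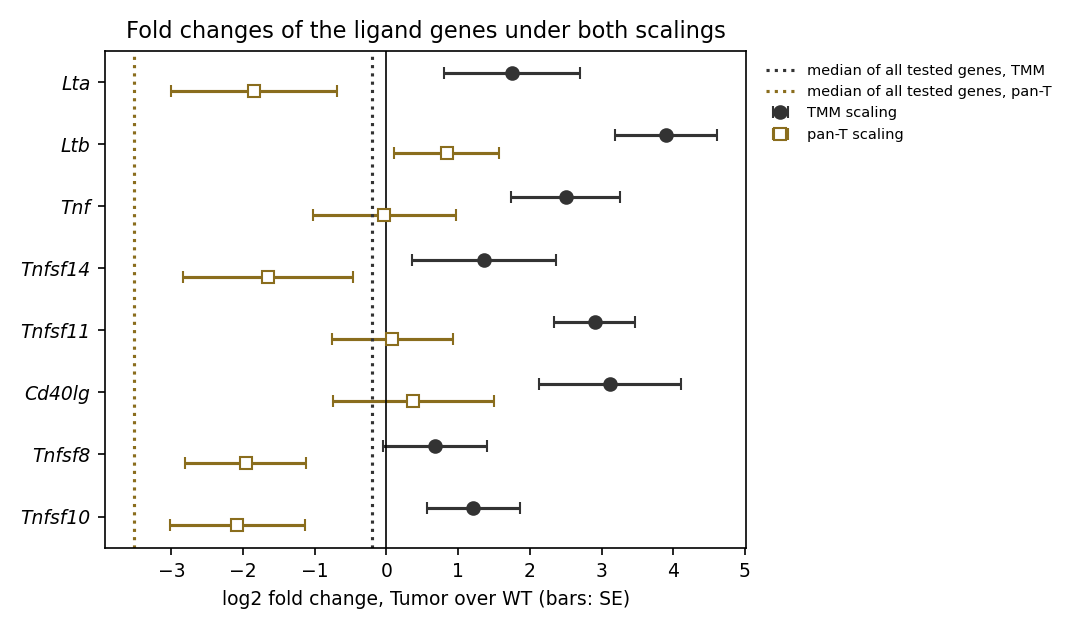
Log2 fold change of each ligand gene, Tumor over WT, with bars of 1 SE, on TMM scaling (filled circles) and pan-T scaling (open squares), and dotted lines at the medians of all tested genes (-0.20 and -3.52). All 8 circles lie right of 0, and 5 of the squares lie left of it. On TMM scaling 9374 of the 21414 tested genes had a value above 0.

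Levels can be compared between genes only per length, so CPM per kilobase of gene length was used for the order of the ligands within a library. Ltb ranked highest of the 8 in all 10 libraries and Tnfsf11 ranked second in all 5 Tumor libraries. In Tumor the means were 359 ± 146 CPM per kilobase for Ltb, 33.9 ± 9.47 for Tnfsf11, 21.9 ± 12.8 for Tnf, 17.6 ± 12.2 for Tnfsf8, 13.3 ± 13.8 for Cd40lg, 10.4 ± 10.2 for Lta, 7.70 ± 6.49 for Tnfsf14 and 5.44 ± 2.69 for Tnfsf10 (SD, n = 5). From Tnf downward no neighbours in this order differed by more than the SD of their difference within libraries.

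In WT the order was flatter. The means were 24.0 ± 13.9 CPM per kilobase for Ltb, 11.0 ± 8.56 for Tnfsf8, 4.54 ± 2.60 for Tnfsf11, 3.88 ± 4.70 for Tnf, 3.05 ± 1.71 for Lta, 3.03 ± 2.92 for Tnfsf14, 2.33 ± 1.35 for Tnfsf10 and 1.53 ± 1.11 for Cd40lg (SD, n = 5). No neighbours in the WT order differed by more than the SD of their difference within libraries, and Tnfsf8 ranked second in 4 of the 5.

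Shares of the 8 ligands' summed CPM per kilobase do not depend on the scaling of a library. Ltb took 86.2%, 86.7%, 84.9%, 58.7% and 56.2% in Tumor replicates 1 to 5, against 44.2%, 53.4%, 58.6%, 31.9% and 34.5% in WT replicates 1 to 5. Tumor replicates 1 to 3 stood well above WT, Tumor replicate 4 lay just above WT replicate 3, and Tumor replicate 5 lay below it. Tnfsf8 took 1.28% to 10.2% in Tumor and 1.63% to 33.9% in WT, with its largest shares in WT replicates 4 and 5. Tnfsf11 took 4.14% to 12.8% in Tumor and 5.73% to 9.66% in WT, and these shares were not tested.

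**Figure D4:**
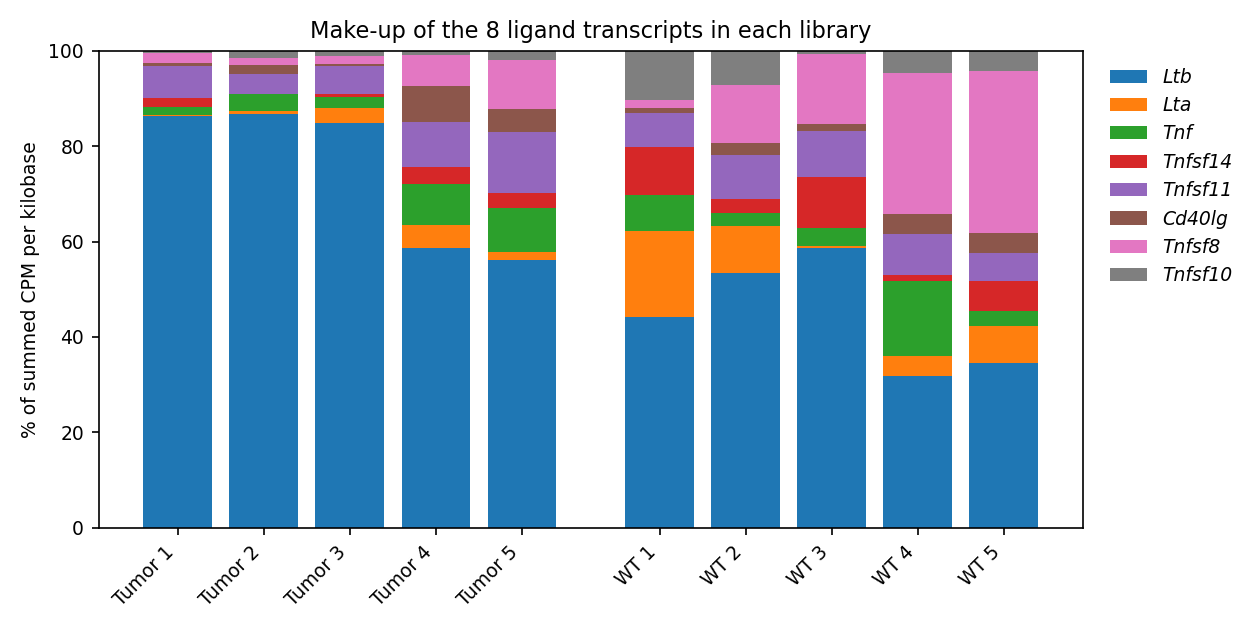
Share of each ligand gene in the summed CPM per kilobase of the 8 genes, with 1 bar per library, Tumor left and WT right. The Ltb share was 84.9% to 86.7% in Tumor replicates 1 to 3, 56.2% and 58.7% in Tumor replicates 5 and 4, and 31.9% to 58.6% in WT.

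Receptors of the 8 ligands were measured in the same sorted libraries, which also held RNA of other cells. Of 9 receptor genes, all tested, 1 was called higher and 0 lower, beside 1.37% and 0.219% of all tested genes. Their median log2 fold change was 0.81. The call was Tnfrsf8, encoding CD30, at 63.8 ± 34.5 CPM in Tumor and 9.40 ± 2.90 CPM in WT (SD, n = 5 each), with no overlap and a log2 fold change of 2.77 ± 0.54 (SE, edgeR adjusted p = 0.0155). Tnfrsf8 was called without WT replicates 1 and 2 (0.0156) and without WT replicates 3 to 5 (0.00278), and the call was lost without Tumor replicate 3 or WT replicate 1 (adjusted p at most 0.0828). Its ligand gene Tnfsf8 did not pass, so the CD30 pair had a called receptor and an uncalled ligand. Tnfrsf1b, encoding TNF receptor 2, a TNF receptor of Tregs, stood at 413 ± 184 CPM in Tumor and 61.8 ± 63.3 CPM in WT. Its log2 fold change of 2.74 ± 0.75 did not pass (adjusted p = 0.0720). It was 2.30 without WT replicates 1 and 2 (0.0573), 3.76 without WT replicates 3 to 5 (0.000248) and -0.010 ± 0.73 with pan-T scaling (0.989). The receptors of the called ligands did not pass either. Tnfrsf11a, encoding RANK, had a log2 fold change of -1.08 ± 0.57 (adjusted p = 0.363). Tnfrsf11b, the decoy receptor of RANKL, had 0.81 ± 1.26 (0.778) and Ltbr had -1.27 ± 0.69 (0.370). Tnfrsf11b and Ltbr fall outside the naming rule and were picked with their values in view. Ltbr was at 7.87 to 19.5 CPM in Tumor, against 48.2 and 82.1 CPM in WT replicates 1 and 2 and 5.44 to 18.2 CPM in WT replicates 3 to 5. WT replicates 1 and 2 had both more epithelial RNA and a smaller Gm10800 share than WT replicates 3 to 5. The cause of the Ltbr difference between these WT libraries was not tested. Without WT replicates 1 and 2 its log2 fold change was 0.22 ± 0.90 (0.922), and without WT replicates 3 to 5 it was -2.27 ± 0.58 (0.0165). For Tnfrsf11a the 2 values were -0.55 ± 0.68 (0.684) and -1.64 ± 0.55 (0.109). With pan-T scaling Tnfrsf11a, Ltbr and Tnfrsf11b had -4.37 ± 0.90, -4.73 ± 0.98 and -1.63 ± 1.31 (0.000691, 0.000692 and 0.230), beside a median of -3.52 over all tested genes. With pan-T scaling 0 receptor genes passed upward, also before adjustment, where 0.103% of all tested genes were called higher (23 genes before adjustment). On this scale 6 receptor genes passed downward, where 89.2% of all tested genes were called lower. Tnfrsf8 then had -0.70 ± 0.87 log2 units (adjusted p = 0.439).

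Genes that signal below these receptors, or that process ligands and receptors at the cell surface (the sheddases Adam10 and Adam17), included 3 calls. Of 20 listed genes, all tested, 3 were called higher and 0 lower, beside 1.37% and 0.219% of all tested genes. Their median log2 fold change was 1.02. Nfkb2, the precursor of the p52 subunit of the alternative NF-kappaB pathway, rose by 2.15 ± 0.52 log2 units (SE, edgeR adjusted p = 0.0413). Birc2, a ubiquitin ligase of TNF receptor complexes, rose by 2.56 ± 0.62 (0.0411), and Traf2, its adaptor, by 2.52 ± 0.62 (0.0453). Each of the 3 was called in 2 of the 10 fits that left out 1 library, with adjusted p up to 0.143. Nfkb2, Birc2 and Traf2 were called without WT replicates 1 and 2 (adjusted p = 0.0321, 0.0228 and 0.0175) and without WT replicates 3 to 5 (0.00289, 0.00401 and 0.0189). The other 17 had log2 fold changes from -0.18 to 3.11 and did not pass. With pan-T scaling 0 of the 20 passed upward, also before adjustment, where 0.103% of all tested genes were called higher (23 genes before adjustment). On this scale 12 of the 20 passed downward, where 89.2% of all tested genes were called lower. Nfkb2, Birc2 and Traf2 then had -1.17 ± 0.73, -0.59 ± 0.73 and -0.77 ± 0.80 (adjusted p = 0.127, 0.436 and 0.351).

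Transcription factors known to act on ligand genes in T cells gave no edgeR calls with all 10 libraries. Of 13 listed, all tested, edgeR called 0 (8 at an unadjusted p below 0.05, beside 16.1% of all tested genes), with a median log2 fold change of 1.59. DESeq2 called 3 higher, beside 3.18% of all tested genes, and limma voom 2 higher, beside 2.21%. Those with the highest mean CPM were Junb, an AP-1 subunit, Fos, another AP-1 subunit, and Rora, a nuclear receptor. Their log2 fold changes were 2.02 ± 0.74 for Junb, 0.57 ± 0.88 for Fos and 1.89 ± 0.71 for Rora (SE, edgeR adjusted p = 0.194, 0.775 and 0.203). With pan-T scaling Junb, Fos and Rora had -1.01 ± 1.05, -3.04 ± 1.39 and -1.23 ± 0.89 (adjusted p = 0.353, 0.0423 and 0.183). Without WT replicates 1 and 2 Fos had 3.01 ± 0.75 and passed (0.0168), while Junb (0.126) and Rora (0.210) did not. Without WT replicates 3 to 5 Fos had -0.61 ± 0.42 (0.789), while Junb (0.00688) and Rora (0.000128) passed upward. Of the other listed factors Jun, Jund and Ahr passed upward in the first of these fits, and Batf, Irf4 and Nfatc2 in the second. These fits called 7.9% and 4.41% of all tested genes. Ligands of the family outside the 8 gave no calls either. Of 10 such genes 5 were tested and edgeR called 0 (1 at an unadjusted p below 0.05), as did DESeq2 and limma voom, with a median log2 fold change of 0.65 over these 5. Tnfsf13b, the B cell factor BAFF, had a log2 fold change of -1.15 ± 0.89 (adjusted p = 0.531), Tnfsf15 one of 0.65 ± 0.98 (0.770) and Tnfsf9, the ligand of 4-1BB, one of 2.28 ± 0.97 (0.256). With pan-T scaling these 3 had -4.19 ± 1.13, -2.66 ± 1.20 and -1.27 ± 1.16 (0.00240, 0.0389 and 0.290). None of them passed without WT replicates 1 and 2 or without WT replicates 3 to 5. The other 5, Fasl and Cd70 among them, did not pass the filter and averaged at most 6.39 CPM in either group.

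**Figure D5:**
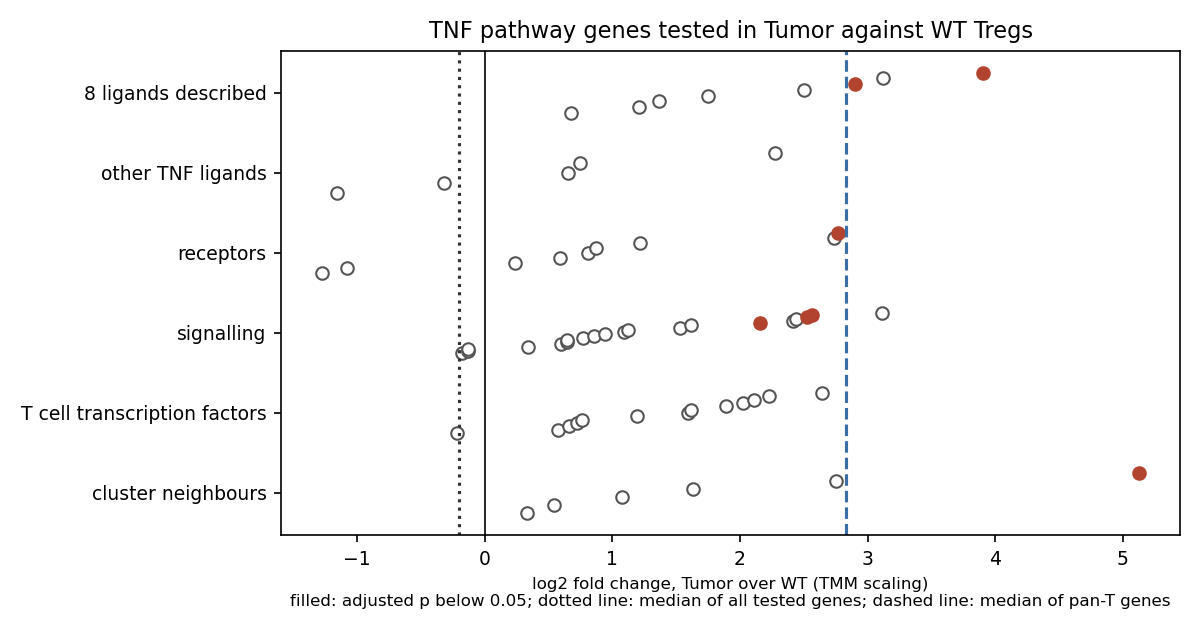
Log2 fold change, Tumor over WT on TMM scaling, of each tested gene of 6 lists, with filled points for an adjusted p below 0.05, a dotted line at the median of all tested genes (-0.20) and a dashed line at the median of the pan-T genes (2.83). Filled points lie in the rows of the 8 ligands, the receptors, the signalling genes and the neighbours of the lymphotoxin cluster.

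Genes whose profile over the 10 libraries was most like the called ligands were picked by the smallest root mean square difference of centred log2(CPM + 1) among tested protein coding genes. For Ltb these were Lat, an adaptor of T cell receptor signalling and 1 of the 14 pan-T genes (0.32 log2 units), Dusp2, a phosphatase of T cell activation (0.40), and Selplg, the selectin ligand PSGL-1 (0.50), where the median over all such genes was 2.38. For Tnfsf11 they were Mmd (0.36), Akna (0.48) and Rap1b, a small GTPase (0.48), where the median was 1.94. These distances are descriptions that hold the difference between the groups as well as that between libraries.

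Markers of other cells that the tissue or gate could hold are given by their summed CPM. Those of CD8 T and NK cells came to 166 to 976 in Tumor and 37.7 to 200 in WT. In Tumor most of this sum was Gzmb, the granzyme B gene, which was called higher, and the other 7 genes came to 14.7 to 163 in Tumor and 23.5 to 144 in WT. Genes of ILC3 and lymphoid tissue inducer cells, which also make lymphotoxin and RANKL, came to 173 to 424 in Tumor and 102 to 185 in WT, with the chemokine receptor gene Ccr6 called higher. B cell genes came to 68.5 to 107 in Tumor and 74.6 to 317 in WT. Dendritic cell genes came to 127 to 409 in Tumor and 50.7 to 283 in WT, neutrophil genes to 58.4 to 1642 in Tumor and 53.9 to 118 in WT, and plasma cell genes to 75.0 to 441 in Tumor and 36.3 to 2805 in WT. Epithelial genes came to 43.5 to 4283 in Tumor and 142 to 35603 in WT, and stromal and endothelial genes to 107 to 262 in Tumor and 146 to 282 in WT. No other gene of the lists in this paragraph was called. Every listed gene had reads in at least 1 library, and the part of these cells in the ligand values was not tested.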

How the data were processed

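Gene expression had been measured by Smart-seq2 in 10 mouse libraries of sorted colon Tregs, 5 Tumor and 5 WT, grouped by their titles. The deposited table held unscaled counts of reads for each gene, and the table's gene lengths were used for CPM per kilobase. Per the submitters' processing notes the tools were HISAT2 2.0.5 and featureCounts 1.5.0-p3 on mm10. Which annotation was counted, whether strand was used and how multi-mapping reads were handled is not given in the sources used here. The reads carry no molecular identifiers, so counting limits cover counting error only.

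Counts were tested in R 4.3.3 with edgeR 4.0.16 over all genes: filterByExpr (minimum count 10, total 15), TMM scaling, a robust 2-sided quasi-likelihood F test with group as the only term, and Benjamini-Hochberg adjustment over 21414 genes. The SE is the log2 fold change divided by the square root of F. All 45 pairs of libraries differed by more than counting error (chi-square per degree of freedom at least 29.8), so none was counted as a duplicate. Pan-T scaling divides each library by the geometric mean of its 14 pan-T genes (counts + 0.5), and a percentage of that mean is not per length. The scripts were tested first on simulated counts with the dispersions of these data, where 200 genes were changed by known folds. The changed genes were drawn from those above a minimum mean count. Cd40lg, Tnfsf14 and Lta, with 431, 433 and 486 reads in all, lay below it, so the shares of changes called do not cover them. In that test edgeR called 1.49% of 2-fold, 5.97% of 4-fold and 90.9% of 16-fold changes. A gene that did not pass may therefore still differ. Of the calls, 7.14% were false in edgeR, 36.4% in DESeq2 and 3.77% in limma voom, shares that depend on how many genes were changed.

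The members, the lists of related and marker genes and the alternatives were chosen with earlier results of these data known, pan-T scaling and the left-out sets of WT libraries among them. Text names all 8 ligands, each called gene of the other pathway lists and, below 3 calls, the most abundant genes up to 3, and for called ligands the 3 genes of most similar profile. Alternatives were RLE and no composition factors, pan-T scaling, DESeq2 1.42.0, limma 3.58.1 voom, no low-count filter, at least 10 CPM in 5 libraries, protein coding genes alone, the replicate number as a block, and libraries left out.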

Additional observations from a re-analysis of the deposited data

Results flagged for a closer look

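Among 46 sets of 5 libraries examined for the ligands and the other named pathway genes, 6 held 1 library far from the rest. The rule was a gap to its nearest neighbour above 0.71 of the whole range. About 1 in 20 sets of normally distributed values pass this rule, a rate that need not hold for CPM. The 6 are therefore a description and not an excess over chance. For the ligands these were Tnf in WT replicate 4, at 20.02 CPM against 2.27 to 4.69 CPM in the other WT libraries, and Tnfsf14 in WT replicate 3, at 15.02 CPM against 1.82 to 4.99 CPM. Tnfrsf1b was also high in WT replicate 4, at 172 CPM against 18.5 to 54.0 CPM. Tnfsf13b was high in Tumor replicate 5, at 23.6 CPM against 0.414 to 5.86 CPM. Fos was low in Tumor replicate 1, at 397 CPM against 906 to 1032 CPM, and Ddx39b was high in WT replicate 2, at 185 CPM against 7.71 to 54.8 CPM.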

How the results depend on the processing

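Of 165 values of the 8 ligands under 21 alternatives, 151 kept their direction and side of the threshold, 4 lost the call, 5 gained it and 5 turned negative. The 5 that turned did so with pan-T scaling: Tnfsf14 -1.65, Tnfsf8 -1.97, Tnfsf10 -2.08, Lta -1.85 and Tnf -0.031 log2 units. With that scaling the number of called ligands was again 2, but both were lower in Tumor. The number of called ligands was 4 in DESeq2 and 1 to 3 when each library was left out in turn, and stayed at 2 or 3 elsewhere. Over all tested genes edgeR called 293 higher and 47 lower, DESeq2 682 and 969, limma voom 474 and 33, and edgeR without a filter 479 and 341. The edgeR calls numbered 63 to 350 higher and 2 to 72 lower when 1 library was left out, with the fewest higher calls without Tumor replicate 3 or WT replicate 1. They numbered 1615 and 378 without WT replicates 1 and 2, and 696 and 629 without WT replicates 3 to 5. The cause of these shifts was not tested. The filter of 10 CPM in 5 libraries left 5 of the 8 ligands.

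Same-numbered Tumor and WT libraries did not deviate together (correlations over genes of -0.14 to 0.040), and 0 of the 10 libraries correlated best with its own number, so the numbers were not taken as pairs. With the replicate block 2 ligands were called, Ltb with a log2 fold change of 3.99 and Tnfsf11 with 3.08 (edgeR adjusted p = 0.0390 and 0.0404), and over all genes 138 were called higher and 3 lower. Lta, Tnf, Tnfsf14 and Cd40lg each rest on at most 20 reads in 4 or 5 of the 5 WT libraries, which limits their precision.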
